A study of Mus musculus with 5 samples.

Results

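Egr2, Pou3f1, Sox10 and Zeb2 encode transcription factors that take a Schwann cell into the myelinating state, and their RNA was compared between Ebf2-/- (KO) and wild-type (WT) mouse sciatic nerves. Each factor was represented by the probe set whose only annotated gene symbol is its own, which gave 4 probe sets of 10361 in the table, or 4 of 9407 named genes. The KO group held 2 pools (pools 2 and 4) of Ebf2-/- knock out nerves and the WT group 3 pools (pools 1, 9 and 11) of Ebf2+/+ wild type nerves. All pools came from C57Bl6N background pups at postnatal day 2, born to heterozygous parents, with 12 nerves and 1 array per pool. How many animals or litters stand behind a pool, and which part of Ebf2 is missing from the allele, are not in the labels.

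Schwann cells make the myelin of peripheral nerves. Sox10, an HMG box factor of the SOX group E, is needed through the whole Schwann cell lineage. Together with Pou3f1 (also called Oct-6), a POU domain factor of the promyelinating stage, it switches on Egr2 (also called Krox-20), a zinc finger factor that, again with Sox10, activates genes of myelin proteins and lipids. Zeb2, a zinc finger and homeodomain repressor, holds down genes that keep Schwann cells immature. Nerves at this age hold Schwann cells that are starting to myelinate.

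Egr2 fell in the KO pools and the other 3 factors did not pass the test. All levels below are log2 values after RMA, and a log2 fold change is the KO mean minus the WT mean with its moderated standard error (SE). Egr2 was 2.20-fold lower in KO. Pou3f1 had a smaller difference of the same sign, and Sox10 and Zeb2 had intervals that included 0. Adjusted p-values come from limma over all 10361 probe sets, with adjusted p below 0.05 as the threshold, which 0.328% of all probe sets passed as lower in KO and 0.347% as higher.

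Ebf2, which encodes an early B cell factor and is the gene removed, read 9.25 and 8.74 in KO pools 2 and 4, against 11.55, 11.14 and 11.40 in WT pools 1, 9 and 11. Every pool stood on the side of its label, and the KO level was 5.16-fold lower (adjusted p = 4.97e-07). Of 12 Schwann cell markers 7 were measured. Sox10 itself was among them, as was Erbb3, which is also listed below as an input to the factors. The mean level of the 7 was 11.02 and 10.81 in KO pools 2 and 4, against 10.85 to 11.16 in the WT pools. The measured markers differed among themselves. Cdh19 (log2 fold change -0.56) and Erbb3 (-0.47) had both KO pools below all WT pools, as for 13.3% of all probe sets. Gfra3 (0.47) had both above, as for 17.5% of all probe sets, and Fabp7 spanned 9.39 to 11.05 in WT. None passed the adjusted threshold, and the other 5 markers are not analysed here. The 10 keratinocyte markers averaged 7.47 and 7.75 in the KO pools, against 7.40 in WT pool 1 and 9.66 and 8.92 in WT pools 9 and 11. The 10 skeletal muscle markers averaged 11.42 and 11.65 in the KO pools, against 10.95 in WT pool 1 and 12.48 and 12.35 in WT pools 9 and 11. The 4 factors are therefore also compared with WT pool 1 alone, where the WT arm is 1 pool and the spread comes from the 2 KO pools.

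Endothelial, cell cycle and fibroblast genes averaged higher in both KO pools than in all WT pools. The 6 endothelial markers, all with a positive log2 fold change, averaged 11.33 and 11.17 in KO pools 2 and 4, against 11.11 in WT pool 1 and 10.65 in each of WT pools 9 and 11. The 5 measured of 6 cell cycle genes, 4 of them with a positive log2 fold change, averaged 10.54 and 10.58 in KO, against 10.47, 10.04 and 10.08 in WT pools 1, 9 and 11. The 3 measured of 6 fibroblast markers, all with a positive log2 fold change, averaged 12.94 and 12.83 in KO, against 12.74, 12.46 and 12.62 in WT. In these 3 lists 0 genes passed limma's adjusted threshold, and 5 endothelial, 4 cell cycle and 1 fibroblast gene were higher at unadjusted p below 0.05 (7.14% of all probe sets). Their part in the levels of the factors, the target genes and the other genes given below, Hey2 among them, was not tested.

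Sox10, the factor of the lineage, had levels of 11.64 (pool 2) and 11.24 (pool 4) in KO, against 11.65, 11.63 and 11.65 in WT pools 1, 9 and 11. KO pool 2 stood within the WT pools, whose range was 0.018, and only KO pool 4 was lower. In every probe set analysed, the fourth-lowest pool exceeded the lowest by at least 0.175, which Sox10 met only through KO pool 4. The low KO pool 4, and the Sox10 values that rest on it, are therefore not independent of the entry of Sox10 in the data. The mean was 11.44 ± 0.28 (SD, n = 2) in KO and 11.65 ± 0.01 (SD, n = 3) in WT. The log2 fold change of -0.20 (SE 0.17, 95% interval -0.56 to 0.16) did not pass (adjusted p = 0.609). Without KO pool 4 it was -0.0023, without KO pool 2 it was -0.40, and against WT pool 1 alone it was -0.21. Of all probe sets, 22.5% had a log2 fold change this low or lower. Melanocytes are another cell type that uses Sox10. The 6 melanocyte markers, all measured, averaged 7.06 and 7.05 in the KO pools, against 6.92 to 7.37 in the WT pools, and their part in the Sox10 level was not tested.

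Pou3f1, which marks the promyelinating stage, had levels of 11.51 (pool 2) and 11.01 (pool 4) in KO, against 11.61, 11.79 and 11.68 in WT pools 1, 9 and 11. Both KO pools were below all WT pools, by at least 0.10. The mean was 11.26 ± 0.35 (SD, n = 2) in KO and 11.69 ± 0.09 (SD, n = 3) in WT. The log2 fold change was -0.43 (SE 0.18, 95% interval -0.81 to -0.06), and it did not pass after adjustment (limma adjusted p = 0.270, unadjusted p = 0.0260). It was -0.19 without KO pool 4, -0.68 without KO pool 2 and -0.35 against WT pool 1 alone. Of all probe sets, 6.04% had a log2 fold change this low or lower and 7.17% were lower at unadjusted p below 0.05.

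Egr2, the factor that drives the myelin genes, had levels of 10.72 (pool 2) and 9.75 (pool 4) in KO, against 11.19, 11.53 and 11.40 in WT pools 1, 9 and 11. The groups did not overlap, with 0.47 between the highest KO pool and the lowest WT pool. Egr2 and Pou3f1 were the 2 of the 4 factors with both KO pools below all WT pools, which held for 13.3% of all probe sets. The mean of Egr2 was 10.24 ± 0.68 (SD, n = 2) in KO and 11.37 ± 0.17 (SD, n = 3) in WT. Its log2 fold change was -1.13 (SE 0.22, 95% interval -1.59 to -0.68, adjusted p = 0.0181). Of all probe sets, 25 (0.241%) had a log2 fold change this low or lower, Egr2 included. In RNA of whole nerves, fewer cells of a type and less RNA per cell cannot be told apart.

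The size and the call of the Egr2 difference varied with the pools. Relative to the WT mean, KO pool 2 was at -0.65 and KO pool 4 at -1.62. Leaving out WT pool 11 kept the call (log2 fold change -1.12, adjusted p = 0.00301). The call was lost without KO pool 2 (-1.62, adjusted p = 0.119), KO pool 4 (-0.65, adjusted p = 0.782), WT pool 1 (-1.23, adjusted p = 0.177) or WT pool 9 (-1.06, adjusted p = 0.831). Against WT pool 1 alone the difference was -0.95 (adjusted p = 0.857), with the lone WT pool assumed to vary like the KO pools. After centring each array on its median it was -1.08 and did not pass (adjusted p = 0.364). In each of these settings the KO mean was lower.

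Promoter sequences were looked up for the factors in RefSeq (GRCm38.p6), and 2 of the 4, Egr2 and Zeb2, had entries. Of the 5 annotated Egr2 windows, which overlap in part, 3 hold the letters ATGCAAAT, the octamer that POU factors such as Pou3f1 bind. The octamer occurs on either strand in 1.74% of all 32851 windows of 300 bases. The first of these Egr2 windows is shown because Egr2 was the factor that fell and the octamer is the kind of site that the class of Pou3f1 binds. It is given as the 250 bases before the start, chr10:67537619-67537868 on the plus strand, with the octamer in capitals 127 to 120 bases before the start.
Egr2: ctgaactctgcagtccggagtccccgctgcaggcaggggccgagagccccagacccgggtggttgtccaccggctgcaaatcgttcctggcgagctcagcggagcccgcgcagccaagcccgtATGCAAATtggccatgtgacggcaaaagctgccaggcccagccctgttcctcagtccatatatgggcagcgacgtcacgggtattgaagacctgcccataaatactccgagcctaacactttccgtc
The motif of early B cell factors, TCCC and GGGA with any 2 bases between them, is present in 0.904% of all windows and is in none of the 5 Egr2 or 4 Zeb2 windows. GTGGGCG, a core of EGR sites, is in 1 Egr2 window and in 7.97% of all windows, and ACAAAG, a core of SOX sites, is in 1 Zeb2 window and in 18.7% of all windows. The E-box CACCTG, which Zeb2 and other factors bind, is in 20.2% of all windows and in none of the Egr2 or Zeb2 ones. A match is a description of the letters and not a bound site.

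Zeb2, the repressor, had levels of 12.84 (pool 2) and 12.57 (pool 4) in KO, against 12.94, 12.90 and 12.67 in WT pools 1, 9 and 11. The groups overlapped, since KO pool 2 was above WT pool 11. The mean was 12.70 ± 0.19 (SD, n = 2) in KO and 12.84 ± 0.14 (SD, n = 3) in WT. Its log2 fold change was -0.14 (SE 0.17, 95% interval -0.50 to 0.23, adjusted p = 0.712). It ranged from -0.27 without KO pool 2 to -0.0017 without KO pool 4, and was -0.23 against WT pool 1 alone.

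**Figure D1:**
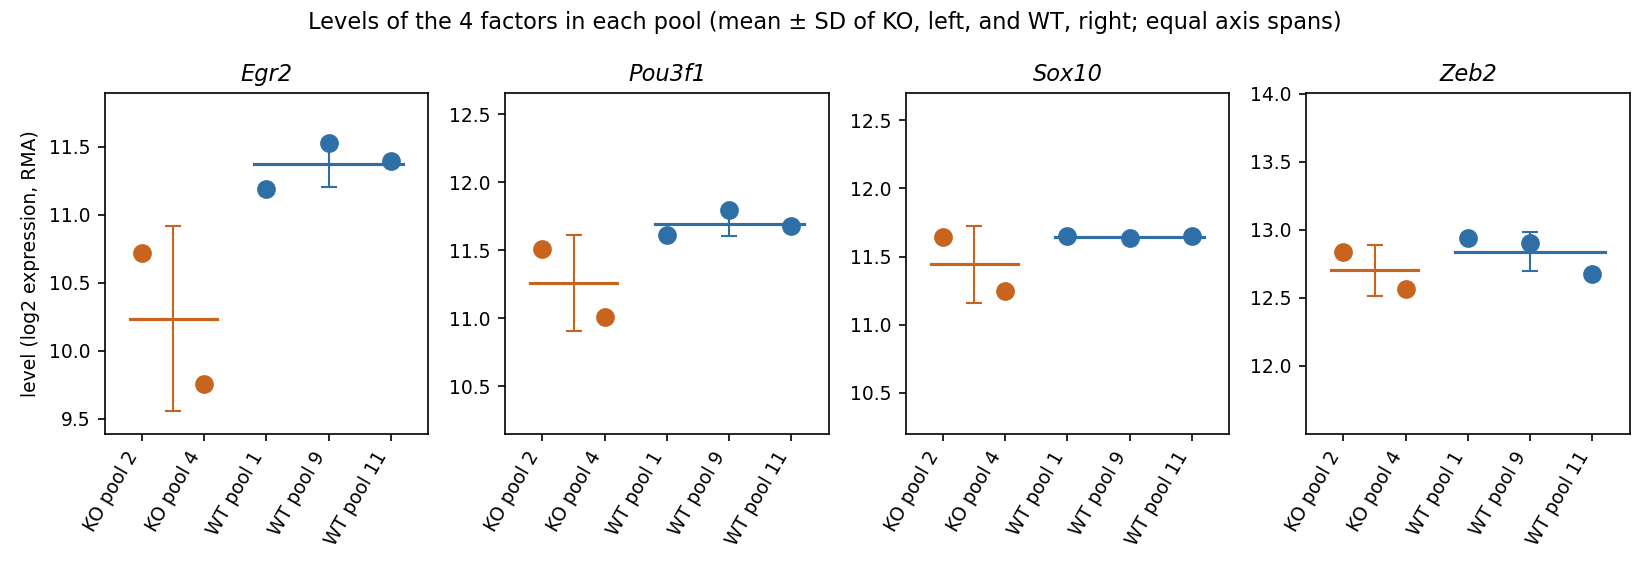
Log2 level (y axis, equal spans) of the 4 factors in each pool (x axis), with KO pools in orange and WT pools in blue, and the mean and SD of each group as a line and a bar. Egr2 was at 10.72 and 9.75 in KO, below all WT pools, and the lowest KO pool of every factor was pool 4.

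All 4 factors were lower in KO pool 4 than in KO pool 2, by 0.96 for Egr2, 0.50 for Pou3f1, 0.40 for Sox10 and 0.27 for Zeb2 on the log2 scale. Of all probe sets 48.1% were lower in KO pool 4. Sox10 is among the probe sets analysed only through its low KO pool 4, as given above. KO pool 4 had an array median of 8.93 and KO pool 2 one of 9.11, against 9.04 to 9.11 in the WT pools. After each array was centred on its median, the factors were still lower in KO pool 4, Egr2 by 0.78, Pou3f1 by 0.31, Sox10 by 0.21 and Zeb2 by 0.08. The share over all probe sets was then 31.6%.

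The factors were also compared with each other within each pool, as the level of a factor minus that of another. Such a difference takes out what the factors of a pool share, and its change between genotypes shows unequal change and not that either factor stayed the same. Egr2 minus Sox10 was -0.93 and -1.49 in KO pools 2 and 4, against -0.46, -0.11 and -0.25 in WT pools 1, 9 and 11. It was lower in both KO pools, by 0.93 in the mean, so Egr2 was lower in KO relative to Sox10 as well (exact permutation test, two-sided, p = 0.1, adjusted p = 0.15 over 6 pairs). Egr2 minus Pou3f1 was -0.79 and -1.26 in KO, against -0.42, -0.27 and -0.28 in WT, a change of -0.70 with the same exact p. Egr2 minus Zeb2 changed by -0.999, and Pou3f1 minus Sox10 by -0.23, again with no overlap and an exact p of 0.1 (adjusted 0.15). Pou3f1 minus Zeb2 changed by -0.30 (exact p = 0.2, adjusted 0.24), with no overlap by a narrow margin (-1.327 in KO pool 2, -1.323 in WT pool 1). Sox10 minus Zeb2 overlapped and changed by -0.07 (exact p = 0.8, adjusted 0.8), which turned to 0.02 without WT pool 11. The smallest p that 2 pools against 3 allow is 0.1, so no pair could pass.

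Relatives of the factors were next. Of the 4 EGR genes, all measured, Egr2 alone fell, while 3 did not pass. Egr3, an immediate early relative of Egr2, read 10.14 and 9.48 in KO, against 10.24, 10.43 and 10.33 in WT, with a log2 fold change of -0.52 (SE 0.19, adjusted p = 0.209). Both KO pools were below all WT pools, as for 13.3% of all probe sets. Egr1, an immediate early gene, had a log2 fold change of 0.06 (SE 0.18), and Egr4 one of 0.01 (SE 0.18). Nab2, a corepressor that binds EGR proteins and is itself an EGR target, was at -0.32 (SE 0.18, adjusted p = 0.437), and its relative Nab1 at 0.22 (SE 0.17, adjusted p = 0.568).

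In POU class 3, 3 of 4 genes were measured and 0 passed limma's adjusted threshold, with 2 lower at unadjusted p below 0.05 (7.17% of all probe sets). Pou3f2 (also called Brn2), which acts beside Pou3f1 in Schwann cells, read 8.98 and 8.57 in KO, against 9.14, 9.50 and 9.22 in WT. Its log2 fold change was -0.51 (SE 0.18, adjusted p = 0.188), close in size to that of Pou3f1. Pou3f3 was at 0.03 (SE 0.18). In SOX group E, 0 of 3 genes passed limma's adjusted threshold and 2 were lower at unadjusted p below 0.05 (7.17% of all probe sets). Sox9, a factor of neural crest and cartilage, read 9.47 and 9.01 in KO, against 10.07, 9.82 and 9.91 in WT (log2 fold change -0.69, SE 0.18, adjusted p = 0.0749). Sox8, the close relative of Sox10, had a log2 fold change of -0.52 (SE 0.18, adjusted p = 0.188). Both KO pools were below all WT pools for Sox8 and Sox9, but not for Sox10, and this held for 13.3% of all probe sets. Zeb1 was at -0.14 (SE 0.18, adjusted p = 0.720), the same value as Zeb2 to the digits shown.

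**Figure D2:**
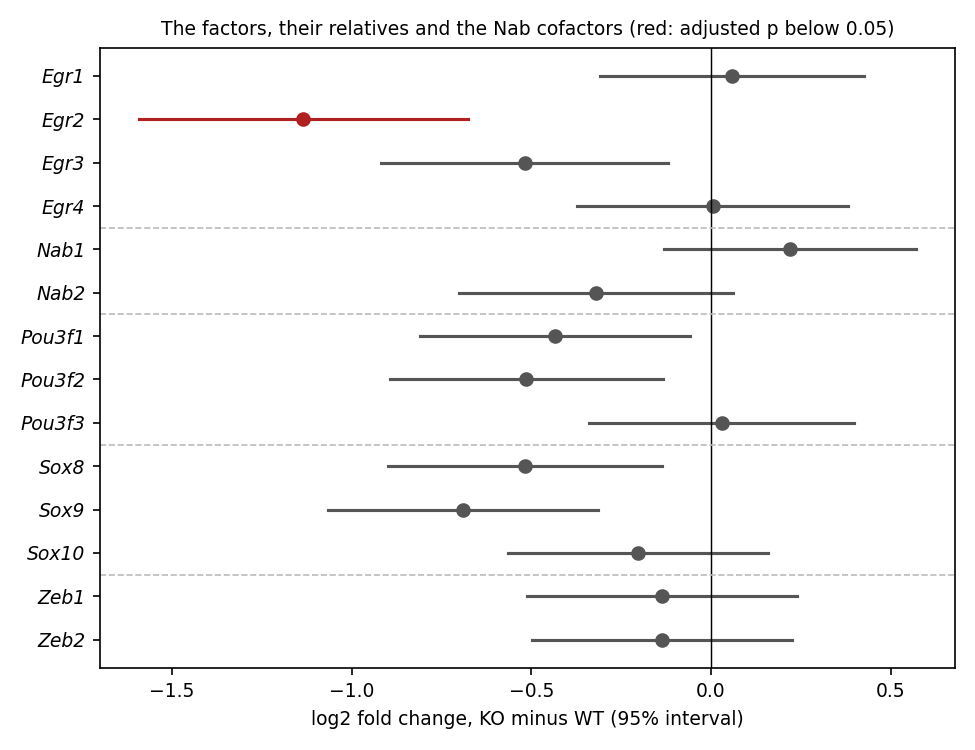
Log2 fold change, KO minus WT (x axis), with its 95% interval for the factors, their family relatives and the Nab cofactors (rows), with genes at adjusted p below 0.05 in red. Egr2 at -1.13 is the only red row, and the intervals of Egr3, Pou3f1, Pou3f2, Sox8 and Sox9 also lie below 0 without passing the adjusted threshold.

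Target genes of the factors included several that fell. Of 29 genes listed as targets of Egr2 and Sox10, for myelin proteins, junction proteins and lipid enzymes, 20 had a probe set, of which 7 fell, 13 did not pass and 0 rose, against 0.328% of all probe sets called lower. The median log2 fold change was -0.48 and the range -2.14 to 0.20, beside a median of -0.0017 over all probe sets. In 16 of the 20, both KO pools were below all WT pools, against 13.3% of all probe sets. These genes were listed with results of the same pools known, so their direction is not independent evidence. The other 9 listed genes are not analysed here.

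Pmp2, which encodes a lipid-binding protein of myelin, had the largest fall of the target genes, at 10.41 and 8.97 in KO, against 11.53, 12.31 and 11.67 in WT (log2 fold change -2.14, SE 0.29, adjusted p = 0.000407). Dusp15, a phosphatase gene, read 9.70 and 9.09 in KO, against 10.45, 11.05 and 10.62 in WT (-1.32, SE 0.21, adjusted p = 0.00326). Cldn19, for a claudin that seals Schwann cell membranes, read 11.32 and 10.77 in KO, against 11.87, 12.42 and 12.16 in WT (-1.11, SE 0.20, adjusted p = 0.0111). For these genes every KO pool was below every WT pool, and KO pool 4 was the lowest, as for Egr2. Over the 20 measured target genes, KO pool 4 was below KO pool 2 in 13 only, beside 48.1% of all probe sets. The other 4 that fell were Gldn, which encodes gliomedin of the node of Ranvier (-1.02), Mag, the myelin-associated glycoprotein (-0.99), Ncmap, a protein of noncompact myelin (-0.86), and Fa2h, which hydroxylates myelin fatty acids (-0.79), with SE from 0.18 to 0.20. Itgb4, an integrin subunit (0.14), and Scd1, a fatty acid desaturase (0.20), which were chosen after their values were seen, were the 2 of the 20 with a log2 fold change above 0, and neither passed.

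The number of target genes that fell was not stable across the pools. It was 5 without WT pool 11 and 0 without KO pool 2, KO pool 4, WT pool 1 or WT pool 9, with 7 to 13 target genes at unadjusted p below 0.05 in these limma fits. Against WT pool 1 alone it was 0 as well (2 at unadjusted p below 0.05), with a median log2 fold change of -0.33. The median stayed between -0.62 and -0.40 when single pools were left out.

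Promoter windows were found for 4 of the 7 target genes that fell. Those of Cldn19 and Mag are shown because they hold the letters of an EGR and a SOX core in genes that fell with Egr2, both as the 250 bases before the start in GRCm38.p6. The Cldn19 stretch is chr4:119255191-119255440 on the plus strand, with GTGGGCG in capitals 86 to 80 bases before the start.
Cldn19: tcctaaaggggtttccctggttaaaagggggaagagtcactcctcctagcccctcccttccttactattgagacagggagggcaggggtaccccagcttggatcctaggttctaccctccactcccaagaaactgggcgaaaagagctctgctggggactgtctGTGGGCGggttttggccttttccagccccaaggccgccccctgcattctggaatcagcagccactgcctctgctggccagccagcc
The Mag stretch is chr7:30914864-30915113 on the minus strand, with ACAAAG on the opposite strand, printed as CTTTGT in capitals 126 to 121 bases before the start.
Mag: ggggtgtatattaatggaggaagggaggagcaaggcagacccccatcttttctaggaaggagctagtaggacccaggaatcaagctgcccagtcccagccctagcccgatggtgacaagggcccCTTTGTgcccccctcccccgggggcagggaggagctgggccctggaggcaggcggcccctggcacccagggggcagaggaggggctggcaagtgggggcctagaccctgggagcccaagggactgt
The EGR core is in both Cldn19 windows and in none of those of Gldn, Mag and Ncmap, and the SOX core is in 2 of the 3 Mag windows and in none of those of Cldn19, Gldn and Ncmap. The E-box CACCTG is in 1 Mag and 1 Ncmap window. The POU octamer and the motif of early B cell factors are in none of the windows of these 4 genes. With background shares of 7.97% for the EGR core, 18.7% for the SOX core and 20.2% for the E-box, such matches occur in many genes. The octamer is in 1.74% of all windows and the early B cell factor motif in 0.904%.

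**Figure D3:**
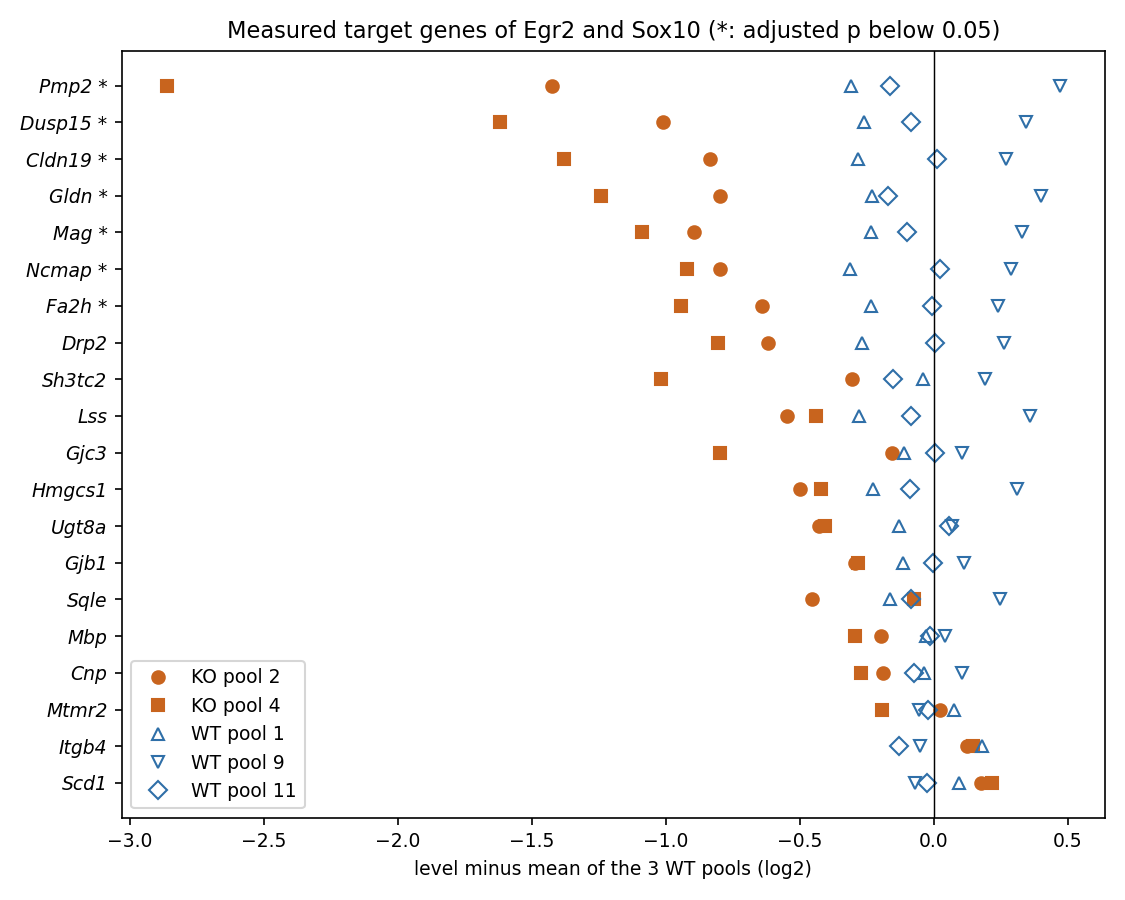
Level in each pool minus the mean of the 3 WT pools (x axis, log2) for the 20 measured target genes of Egr2 and Sox10 (rows, ordered by log2 fold change), with filled orange symbols for KO pools and open blue symbols for WT pools. The 7 genes with an asterisk passed the adjusted threshold, from Pmp2 at -2.14 to Fa2h at -0.79, and in 16 rows both KO pools lie left of all WT pools.

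Genes upstream of the factors showed 0 calls. Of 18 genes for signals and cofactors that feed into Egr2, Pou3f1 and Sox10, 10 were measured and 0 passed limma's adjusted threshold, with 2 lower and 0 higher at unadjusted p below 0.05 (7.17% and 7.14% of all probe sets). The median log2 fold change was -0.22, with 7 genes below 0 and 3 above, of which Adam22 was the highest (0.34). Both KO pools were below all WT pools for 3 genes and above for 1, and 6 overlapped. Over all probe sets these shares were 13.3% below and 17.5% above. Erbb3, the neuregulin receptor of Schwann cells, read 12.53 and 11.90 in KO, against 12.65, 12.75 and 12.66 in WT (log2 fold change -0.47, SE 0.19, adjusted p = 0.243). Its partner receptor Erbb2 read 11.18 and 10.44 in KO, against 11.24, 11.11 and 11.15 in WT (-0.35, SE 0.20, adjusted p = 0.420). As with Sox10, only KO pool 4 was low for Erbb2. Erbb2 too met the spread of at least 0.175 only through KO pool 4, so this likeness to Sox10 is not a separate result. Chd4, a chromatin remodeller of the NuRD complex, was at -0.38 (SE 0.17, adjusted p = 0.304), with both KO pools below all WT pools. Adgrg6, which was chosen after its value was seen and encodes the receptor that raises cyclic AMP ahead of Pou3f1 and Egr2, was at -0.16 (SE 0.17, adjusted p = 0.676).

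Genes that oppose the myelinating state or precede it also showed 0 calls among 11 measured of 13 listed, with 1 lower and 1 higher at unadjusted p below 0.05 by limma (7.17% and 7.14% of all probe sets) and a median log2 fold change of 0.08. Hey2, a Notch target that Zeb2 represses in Schwann cells, read 9.07 and 9.01 in KO, against 8.79, 7.72 and 6.78 in WT pools 1, 9 and 11. Both KO pools were above all WT pools, as for 17.5% of all probe sets, but the WT pools spanned 2.01 and WT pool 1 lay close to the KO pools. Its log2 fold change was 1.28 (SE 0.33, 95% interval 0.59 to 1.97) and did not pass (adjusted p = 0.0719). Its relative Hey1 read 10.57 and 10.79 in KO, against 10.65, 9.93 and 10.32 in WT (0.38, SE 0.20, adjusted p = 0.387), with overlap. Egr3, in this list as a gene of cells before myelination, is given above. Pax3 and Ednrb are not analysed here.

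**Figure D4:**
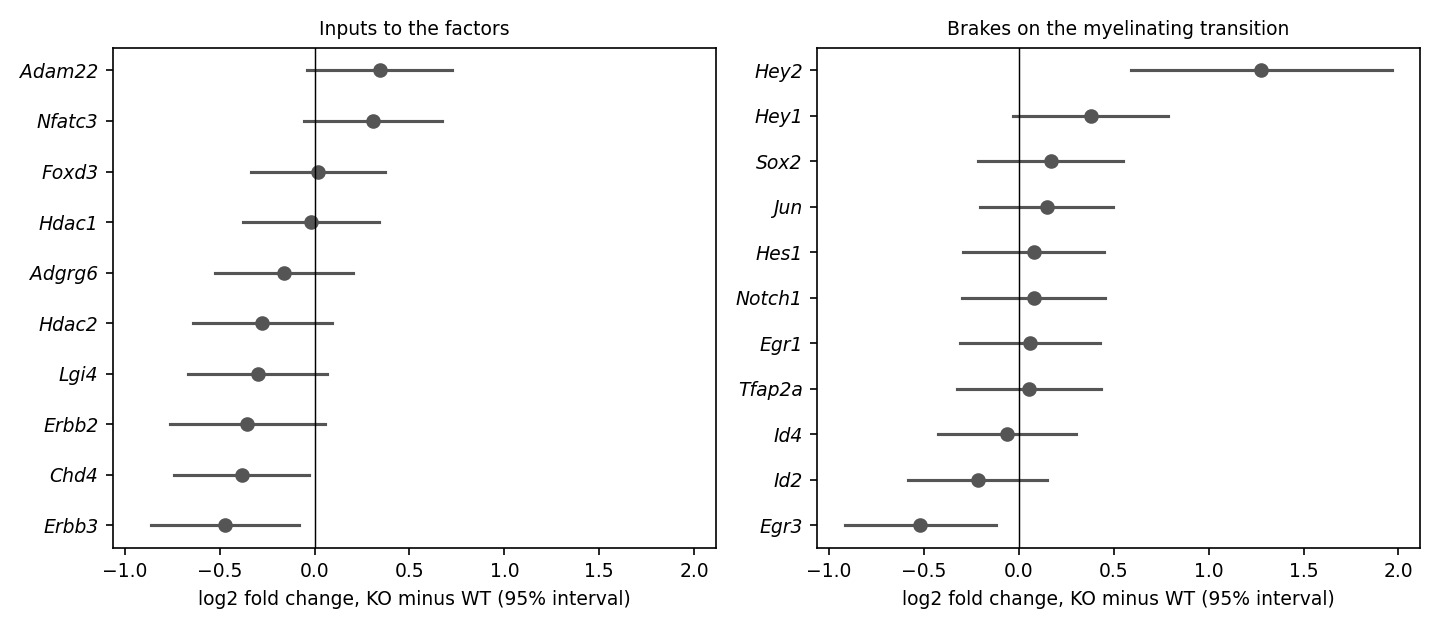
Log2 fold change, KO minus WT (x axis), with its 95% interval for the 10 measured inputs to the factors (left). The right panel, titled as brakes, has the 11 measured genes that oppose the myelinating state or precede it. None of these genes passed the adjusted threshold. Hey2 at 1.28 is the highest and Egr3 at -0.52 the lowest.

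Genes with a level profile like that of each factor were found by the root mean square difference over the 5 pools, after each profile was centred on its own mean. Nearest to Egr2 were Zkscan16 (0.07), Mras (0.07) and Mblac2 (0.10), and 3 probe sets in all lay within 0.1 of Egr2 on the log2 scale. Nearest to Pou3f1 were Immp1l (0.02), Mrpl41 (0.03) and Anks1 (0.03), with 416 probe sets within 0.1. Nearest to Sox10 were Fcgr1 (0.0058), Ap5b1 (0.0068) and Mfn1 (0.0082), with 1485 within 0.1, and nearest to Zeb2 were Dhx58, Olfr1042 and Airn (0.02 each), with 1006 within 0.1. These counts depend on the size of the differences between pools, since a profile with large differences has fewer others within a fixed distance, and are not a measure of shape.

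**Figure D5:**
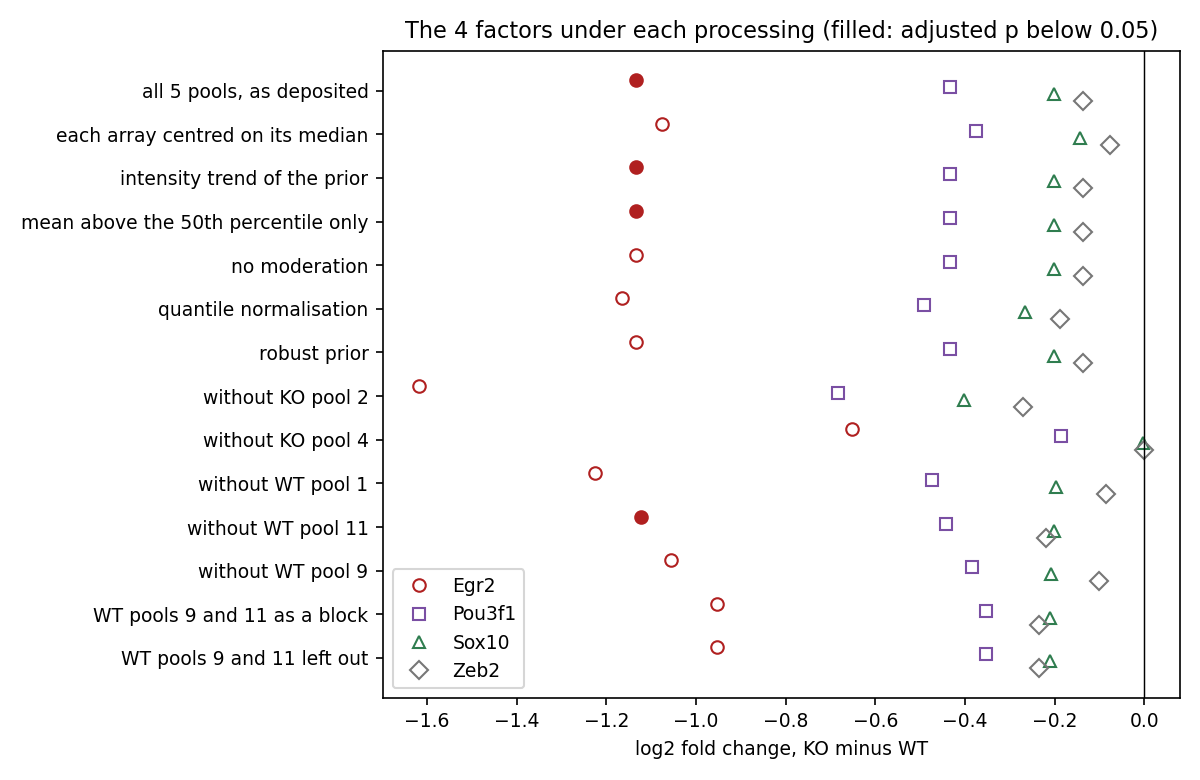
Log2 fold change, KO minus WT (x axis), of Egr2, Pou3f1, Sox10 and Zeb2 under each processing of the values (rows), filled where adjusted p is below 0.05. Egr2 ranged from -1.62 to -0.65 over the 13 alternatives and passed in 3 of them, and the other 3 factors passed in none.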

How the data were processed

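RNA of 5 nerve pools was measured on Affymetrix whole-transcript arrays. The deposited table holds log2 values. The authors made them by RMA, as the submitters' processing notes name it, with no version or settings given in the sources used here. In every probe set the fourth-lowest of the 5 pools exceeded the lowest by at least 0.175. Genes with little spread are therefore not analysed here, which can raise limma's prior and its number of calls. Names came from the platform annotation, in which 9411 had 1 symbol, 384 several and 566 none. Values were compared as deposited with limma 3.58.1 in R 4.3.3 (lmFit and eBayes, 3 residual and 17.4 prior degrees of freedom, two-sided, Benjamini-Hochberg over 10361 probe sets). A limma p-value here combines the spread among the pools of a probe set with a prior variance drawn from all probe sets. The prior weighs more, with 17.4 against 3 degrees of freedom. For Egr2 the unadjusted p was 4.4e-05 from limma and 0.0587 from the same fit without moderation. Part of the spread among pools may be technical, and the number of arrays limits the precision. Pairs of factors were compared by an exact permutation test. Alternatives were median centring, quantile normalisation, a filter on low means, other priors, no moderation, leaving out pools, and WT pools 9 and 11 as a block. Named were the 4 factors, their relatives, and from each list every gene that passed and the 3 largest differences. For each factor the 3 nearest profiles were named too. The members and lists were chosen with earlier results of these data known. No source used here gives the array's build, so gene coordinates are not reported, and promoter windows are RefSeq's of GRCm38.p6.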

Additional observations from a re-analysis of the deposited data

How the results depend on the processing

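Egr2 was lower in KO in all 13 alternatives and passed in 3 of them (the intensity trend of the prior, the filter to means above the 50th percentile, and without WT pool 11). It no longer passed after median centring (-1.08, adjusted p = 0.364), quantile normalisation (-1.16, adjusted p = 0.344), with a robust prior (-1.13, adjusted p = 0.0661), without moderation (-1.13, adjusted p = 0.560), or with WT pools 9 and 11 left out (-0.95, adjusted p = 0.857) or as a block (-0.95, adjusted p = 0.839). Over single pools left out it ranged from -1.62 to -0.65. The differences of Pou3f1, Sox10 and Zeb2 stayed below 0 and did not pass in all 13 alternatives. The 70 probe sets called became 158 with the trend, 148 with the robust prior and 287 with the filter. They became 1 after centring or quantile normalisation and 0 without moderation (498 at unadjusted p below 0.05), with WT pools 9 and 11 left out (127) or as a block (286), and from 0 to 105 over single pools left out. The 7 target genes called became 0 after centring, quantile normalisation, without moderation and with WT pools 9 and 11 left out or as a block (11, 13, 11, 2 and 7 at unadjusted p below 0.05), and 0 to 5 over single pools left out. The cause was not tested. Leaving out a KO pool leaves 1, assumed to vary like the WT pools. Sox10 minus Zeb2 turned from -0.07 to 0.018 without WT pool 11, with a range of -0.13 to 0.018, and the other 5 pairs kept their sign. Median centring moved the median of all log2 fold changes from -0.0017 to 0.06. No paired analysis was possible because the pools of both groups share no number.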
